A study of Mus musculus with 6 samples.

Results

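The genes of proteasome subunits were followed in liver mRNA from male C57BL/6J mice aged 17 weeks. One group had eaten a high-fat diet (HFD) and the other that diet with Bangpungtongseong-san (BT), a herbal medicine, added as an extract at 1.5% (w/w). Feeding lasted 12 weeks from the age of 5 weeks, so the control mice were on high-fat food as well, and mice on ordinary chow were not analysed here. Of 20 mice in 2 groups of 10, 3 libraries per diet were measured. Whether 1 mouse or several stand behind each library is not stated, and p-values therefore measure the spread between libraries, which may be technical. The codes in the sample descriptions also carry one letter for HFD and another for BT, and what the letters stand for is not stated. If they mark sets of libraries, diet and library set cannot be told apart. Members were chosen by symbol (Psma, Psmb, Psmc or Psmd followed by a number, without the immune subunits Psmb8, Psmb9 and Psmb10) and by a mean of at least 1 FPKM over the 6 libraries. FPKM are fragments scaled by transcript length and by the number of fragments in the library. Of 23474 genes in the deposited table, 37 matched the symbols and 35 passed the level. The 35 are 14 genes of the core particle, 20 of the cap and Psmc3ip, a meiotic recombination cofactor that shares only the start of its symbol. Psmc3ip, at a mean of 1.46 FPKM, was the member nearest to the limit, and below it lay Psma8, the testis form of an alpha subunit, at 0.541 FPKM. Psmb11, the thymus form of a beta subunit, is listed at 0 in all 6 libraries.

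The proteasome is the protease that degrades ubiquitin-tagged proteins in the cytosol and nucleus. Its core particle is a barrel of stacked rings in which alpha subunits form the gate and beta subunits hold the proteolytic sites. A cap on the end of the barrel binds the ubiquitin chain, removes it and threads the substrate inward with a ring of ATPases. In many cells the transcription factors NRF1 (Nfe2l1) and NRF2 (Nfe2l2) act on antioxidant response elements of these genes, and the rings are built with the help of dedicated chaperones. Hepatocytes rely on the complex for turnover of short-lived and damaged proteins.

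4 promoter windows are shown because their genes either fell with BT (Psma2, Psmb5 and Psmd4) or, as with Psmb6, carried the same motif type as Psmb5. They are RefSeq sequences of GRCm38.p6 from 250 bases before to 50 bases after the annotated start, read 5′ to 3′ on the gene's strand. Capitals mark matches, on either strand, to an element like the antioxidant response element (TGACNNNGC) or to a CCAAT box (CCAAT). The windows are chr14:54617946-54618245 on the minus strand for Psmb5, chr11:70525107-70525406 on the plus strand for Psmb6, chr13:14612992-14613291 on the plus strand for Psma2 and chr3:95042565-95042864 on the minus strand for Psmd4.
Psmb5: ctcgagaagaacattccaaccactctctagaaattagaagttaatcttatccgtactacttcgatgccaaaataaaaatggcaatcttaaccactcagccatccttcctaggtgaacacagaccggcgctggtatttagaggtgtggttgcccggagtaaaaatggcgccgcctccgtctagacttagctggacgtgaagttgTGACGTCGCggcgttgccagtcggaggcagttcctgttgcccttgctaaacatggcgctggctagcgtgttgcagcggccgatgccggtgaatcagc
Psmb6: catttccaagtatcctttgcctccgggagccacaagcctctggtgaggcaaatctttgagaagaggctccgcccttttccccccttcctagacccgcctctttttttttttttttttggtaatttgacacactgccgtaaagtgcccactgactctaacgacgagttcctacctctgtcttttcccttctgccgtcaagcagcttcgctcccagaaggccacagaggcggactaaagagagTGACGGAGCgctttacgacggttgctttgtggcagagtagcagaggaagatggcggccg
Psma2: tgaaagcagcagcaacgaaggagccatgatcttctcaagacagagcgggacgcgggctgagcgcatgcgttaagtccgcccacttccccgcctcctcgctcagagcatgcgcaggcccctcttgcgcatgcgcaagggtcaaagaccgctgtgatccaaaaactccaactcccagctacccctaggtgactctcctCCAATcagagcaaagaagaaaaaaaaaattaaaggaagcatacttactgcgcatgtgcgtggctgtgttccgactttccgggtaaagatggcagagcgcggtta
Psmd4: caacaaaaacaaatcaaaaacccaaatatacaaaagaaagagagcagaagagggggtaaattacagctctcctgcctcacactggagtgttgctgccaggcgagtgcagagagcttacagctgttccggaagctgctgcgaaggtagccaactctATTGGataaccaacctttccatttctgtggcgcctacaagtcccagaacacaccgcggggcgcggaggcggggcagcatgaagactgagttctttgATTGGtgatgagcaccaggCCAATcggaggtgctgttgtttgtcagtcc

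The match in Psmb5 began 47 bases before the start and that in Psmb6 9 bases before it. Windows were found for 29 of the 35 members and not for Psmb1, Psmb2, Psmb7, Psmc3, Psmd3 and Psmd7. The element TGACNNNGC was present in 2 of 11 core genes with a window (Psmb5 and Psmb6) and in 3 of 17 cap genes (Psmc6, Psmd9 and Psmd12), against 12.4% of all 32851 windows in the table and 13.99% of its genes. CCAAT was present in 6 of 11 core genes and 5 of 17 cap genes, against 37.4% of all windows and 41.1% of genes. No window of a member held both motifs. In the core the 2 genes with the first element had a median change of -0.52 and the 9 without it -0.05, whereas in the cap the medians were 0.08 with it and -0.04 without it. Psmb1, Psmb2 and Psmb7, core genes without a window, are in neither group. When trends on transcript length and GC content were removed, Psmb5 and Psmb6 stood at -0.20 and -0.04. Such matches are letters in a window and describe neither binding nor a cause.

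Between the diets, 4 of the 35 members fell with BT and none rose. They were Psmb5, Psmb2 and Psma2 in the core and the ubiquitin receptor gene Psmd4 in the cap. Changes are BT minus HFD on the log2(FPKM + 1) scale, which understates changes of low genes, with limma's SE, and the call is an adjusted p under 0.05 by limma with Benjamini-Hochberg adjustment over 10476 genes. Over all genes tested, 7.33% were called lower and 6.01% higher (13.3% in all), beside 11.4% of the members called lower. An unadjusted p under 0.05 was found for 12 of the 35 members, the 4 called ones included, and for 3397 of the 10476 genes tested. The median change of the members was -0.09, beside 0.07 for all genes tested, with 20 members negative and 15 positive. This median turned to 0.00 when each library was rescaled to the same sum and to 0.05 when trends on transcript length and GC content were removed from each library. The median change was -0.25 over the 14 core genes and 0.02 over the 20 cap genes, and the difference between them was not tested. These medians were -0.16 and 0.11 when all libraries were given equal sums, -0.32 and -0.04 with median-of-ratios scaling, and 0.01 and 0.07 without the length and GC trend.

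**Figure D1:**
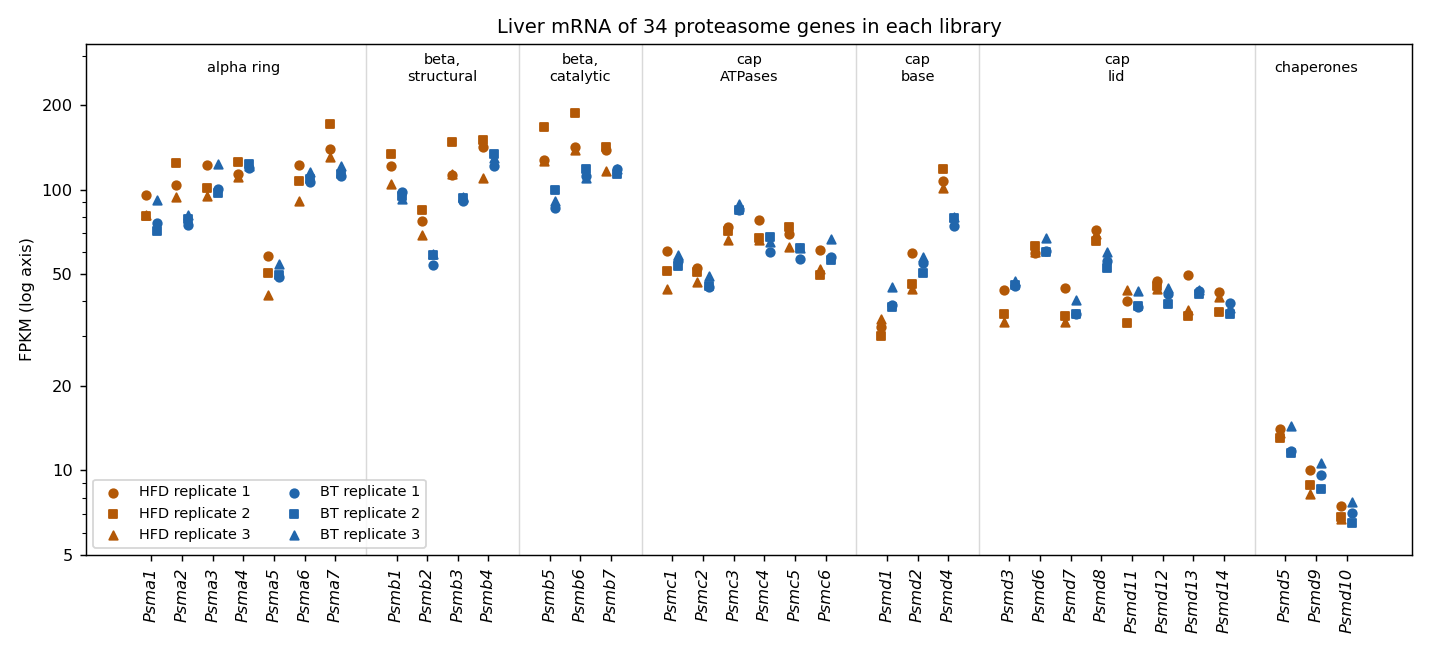
FPKM on a log axis of 34 proteasome genes in each of the 3 HFD (orange) and 3 BT (blue) libraries, with 1 symbol shape per replicate number. Core genes lie higher than most cap genes, and HFD replicate 2 (orange squares) is the highest library for Psmb5, Psmb6 and Psma7.

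Levels of the core genes were high and close together: mean FPKM over the 6 libraries ran from 50.5 (Psma5) to 134 (Psmb6), with a median of 109. The 17 cap subunits ran from 36.5 (Psmd1) to 93.4 (Psmd4), with a median of 52.1. The 3 chaperones of cap assembly were lowest, at 7.04 for Psmd10, 9.32 for Psmd9 and 13.0 for Psmd5. FPKM are scaled by length, but the libraries still differed in a trend on length (below), so these levels compare only roughly between genes. The rough depth estimate puts the core and cap genes at 134 (Psmd10) to 5531 fragments per library, whereas Psmc3ip rests on 13.5 to 45.5 fragments.

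Among the catalytic beta subunits, Psmb5, which holds the chymotrypsin-like site, had the largest fall of all members on the log2(FPKM + 1) scale. With a pseudocount of 0.1 the change of Psmc3ip, a low gene that did not pass, was larger (-0.63, against -0.59 for Psmb5). Psmb5 (chromosome 14, 54614119 to 54618022) stood at 127, 167 and 126 FPKM with HFD and at 85.9, 99.4 and 91.3 with BT. Every BT value lay below every HFD value, and HFD replicate 2 was the highest. The means were 140 ± 23.3 and 92.2 ± 6.77 FPKM (SD, n = 3 each), a ratio of 0.657 and a change of -0.59 ± 0.13 (SE, adjusted p = 0.0276). Leaving out any BT library ended the call (adjusted p 0.115, 0.0662 and 0.0721 without BT replicates 1, 2 and 3), as did removal of the length and GC trend (-0.20, adjusted p = 0.137). Psmb6, the caspase-like subunit, was measured at 142, 187 and 139 FPKM with HFD and at 111, 118 and 110 with BT. These values did not overlap either, but the change of -0.45 ± 0.13 missed the threshold (adjusted p = 0.0554), which it passed when the filter was set at 5 FPKM (adjusted p = 0.0474). Without the length and GC trend it was -0.04 (adjusted p = 0.733). Psmb7, the trypsin-like subunit, stood at 139, 141 and 117 FPKM against 118, 113 and 118, which overlap, and differed by -0.17 ± 0.11 (adjusted p = 0.286). Thus all 3 estimates were negative and 1 passed, while without the length and GC trend Psmb7 was positive (0.09) and none passed.

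Of the structural beta subunits, Psmb2 (chromosome 4, 126677630 to 126709714) fell. Its values were 77.2, 84.3 and 68.8 FPKM with HFD and 53.8, 58.3 and 58.8 with BT. The groups did not overlap, and the change was -0.42 ± 0.11 (adjusted p = 0.0395). Once the length and GC trend was removed it was -0.05 (adjusted p = 0.744), and the call held without HFD replicate 3 but was lost without each of the other 5 libraries (adjusted p 0.0606 to 0.152, the highest without BT replicate 1). Psmb3 was measured at 112, 148 and 113 FPKM against 90.9, 93.1 and 94.4 (-0.41 ± 0.12, adjusted p = 0.0614), and Psmb1 at 121, 133 and 105 against 97.9, 94.9 and 92.2 (-0.32 ± 0.11, adjusted p = 0.0872). Neither gene overlapped between the diets and neither passed. Psmb4 differed little, with 142, 151 and 110 FPKM against 121, 133 and 130 (-0.05 ± 0.13, adjusted p = 0.798).

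In the alpha ring, which gates the barrel, 1 of 7 genes fell. Psma2 (chromosome 13, 14613240 to 14674236) stood at 104, 125 and 94.3 FPKM with HFD and at 74.7, 78.6 and 80.9 with BT, without overlap (-0.45 ± 0.12, adjusted p = 0.0436). It was the one member called lower that also passed with the length and GC trend removed (-0.58, adjusted p = 0.0478), and its annotated transcript of 2911 bases is the longest in the core. That result depends on the transcript chosen, as the trend removal used this length only and other transcripts of Psma2 were not tested. The call held without HFD replicate 3 and was lost without each of the other 5 libraries (adjusted p 0.0595 to 0.156, the highest without BT replicate 1). Psma7 was measured at 139, 172 and 131 FPKM against 112, 114 and 122 and did not overlap, but missed the threshold (-0.34 ± 0.12, adjusted p = 0.0956). The other 5 alpha genes overlapped between the diets: Psma1 differed by -0.11, Psma3 by 0.01, Psma4 by 0.06, Psma5 by 0.03 and Psma6 by 0.05. The smallest change of any member was that of Psma3, with 123, 102 and 94.96 FPKM against 101, 97.1 and 123 and a 95% interval of the difference from -0.30 to 0.32. Psma4 was at 114, 126 and 111 FPKM against 119, 123 and 121, and removal of the length and GC trend made it a higher call (0.30, adjusted p = 0.0498). Psma5 stood at 57.9, 50.5 and 42.2 FPKM against 48.6, 49.5 and 54.3.

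**Figure D2:**
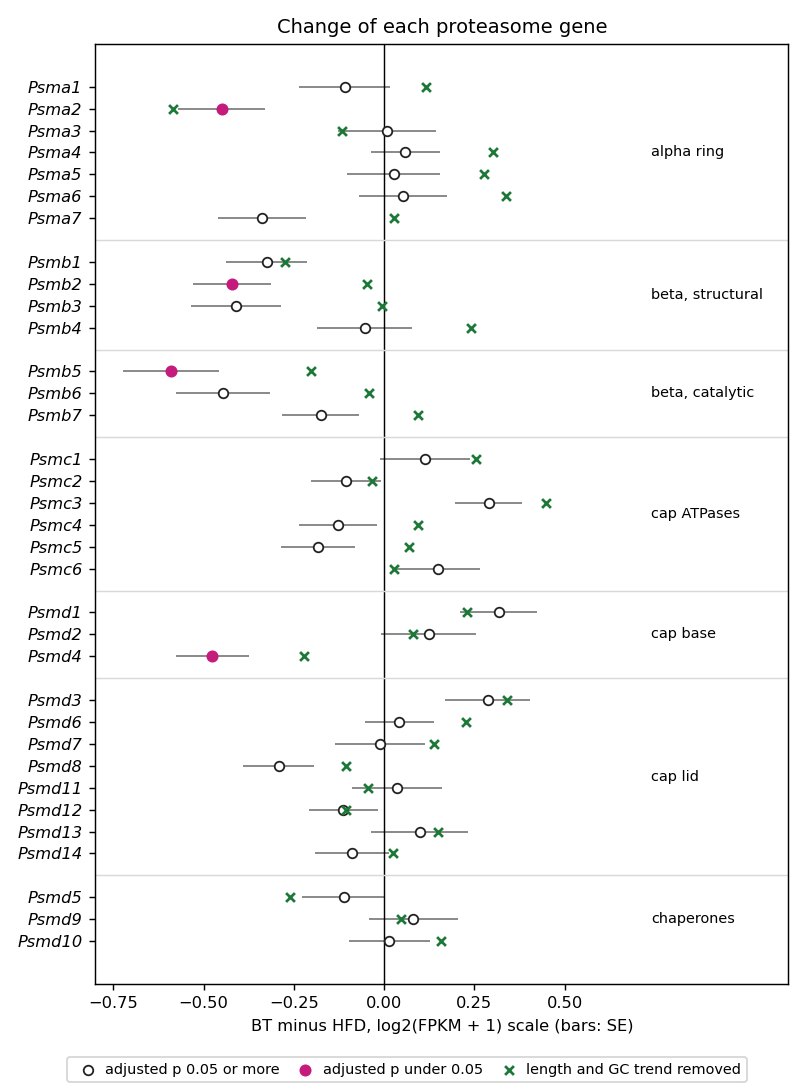
Change (BT minus HFD, log2(FPKM + 1) scale) of 34 proteasome genes, ordered by role, with bars for the SE. Filled points mark the 4 genes called (Psma2, Psmb2, Psmb5 and Psmd4), and crosses give the change with the length and GC trend removed.

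In the cap, the ubiquitin receptor gene Psmd4 (chromosome 3, 95032694 to 95042614) fell, from 107, 119 and 101 FPKM with HFD to 74.3, 79.4 and 79.9 with BT. The groups were well apart, and the means of 109 ± 8.97 and 77.9 ± 3.12 FPKM (SD, n = 3 each) gave a change of -0.48 ± 0.10 (adjusted p = 0.0233), the smallest adjusted p of the members. Psmd4 passed without each HFD library in turn, but not without BT replicate 1, 2 or 3 (adjusted p 0.113, 0.0788 and 0.0600). After removal of the length and GC trend it stood at -0.22 (adjusted p = 0.110). The scaffold genes of the cap base did not share this direction. Psmd1 was measured at 32.5, 30.1 and 34.5 FPKM against 38.9, 38.1 and 44.8, with every BT value above every HFD value (0.32 ± 0.11, adjusted p = 0.0844). Psmd2 stood at 59.6, 46.1 and 44.3 FPKM against 54.7, 50.3 and 57.6, which overlap (0.12 ± 0.13, adjusted p = 0.539).

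None of the 6 ATPase genes, whose products unfold the substrate, passed. Psmc3 was the most separated, at 73.3, 71.1 and 66.0 FPKM with HFD and 84.8, 84.3 and 88.6 with BT (0.29 ± 0.09, adjusted p = 0.0720). It was called higher when each library was rescaled to the same sum (0.38), with quantile normalization (0.37) and once the length and GC trend was removed (0.45, adjusted p = 0.0275). Psmc5 pointed the other way, at 69.4, 73.4 and 62.6 FPKM against 56.6, 61.8 and 62.0 (-0.18 ± 0.10, adjusted p = 0.247). Psmc1, Psmc2, Psmc4 and Psmc6 overlapped between the diets, with differences of 0.11, -0.10, -0.13 and 0.15.

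The lid, which removes ubiquitin before degradation, had no gene called among 8. Psmd8 was at 71.6, 65.4 and 69.5 FPKM with HFD and at 55.6, 52.6 and 60.1 with BT, without overlap (-0.29 ± 0.10, adjusted p = 0.0813), and it passed as lower with median-of-ratios scaling (-0.36). Psmd3 was separated in the opposite direction, at 43.9, 36.0 and 33.7 FPKM against 45.2, 45.8 and 47.4 (0.29 ± 0.12, adjusted p = 0.130), and was called higher without HFD replicate 1 (adjusted p = 0.0406). Psmd14, the deubiquitinase of the lid, differed by -0.09 ± 0.10 (43.1, 36.7 and 41.3 FPKM against 39.5, 36.1 and 38.002, adjusted p = 0.571). Psmd7, its partner, stood at 44.5, 35.5 and 33.9 FPKM against 36.2, 35.9 and 40.3, a difference of -0.01 with a 95% interval from -0.30 to 0.27. For Psmd6, Psmd11, Psmd12 and Psmd13 the differences were 0.04, 0.04, -0.11 and 0.10, with overlapping groups. Psmd11 stood at 40.1, 33.4 and 43.9 FPKM with HFD and 38.1, 38.4 and 43.4 with BT. The assembly chaperones Psmd5, Psmd9 and Psmd10 differed by -0.11, 0.08 and 0.01, and Psmd10 stood at 7.45, 6.80 and 6.72 FPKM against 7.02, 6.48 and 7.74. Gm26745, on the opposite strand, overlaps 25.5% of Psmd9's exon bases, so its value is uncertain, as no strand setting is given. Psmc3ip was at 1.23, 2.56 and 1.52 FPKM with HFD and 0.723, 0.899 and 1.796 with BT, which overlap (-0.38 ± 0.23, adjusted p = 0.286).

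Over the 35 members, 10 had all BT values below all HFD values and 3 had them above. Over all genes tested these shares were 16.1% and 23.2%. Of the 10, 7 were core genes (Psma2, Psma7, Psmb1, Psmb2, Psmb3, Psmb5 and Psmb6) and 3 cap genes (Psmc5, Psmd4 and Psmd8), and the 3 above were all cap genes (Psmc3, Psmd1 and Psmd3).

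To set the core against the cap within each library, each gene's deviation from its mean over the 6 libraries was averaged over the 14 core genes and over the 20 cap genes, and the second was subtracted from the first. The index was 0.04, 0.29 and 0.01 in the HFD libraries and -0.13, -0.07 and -0.15 in the BT libraries, so the core was lower relative to the cap in every BT library. The HFD value rested in large part on replicate 2. Its mean was 0.11 ± 0.15 with HFD and -0.11 ± 0.04 with BT (SD, n = 3 each), a difference of -0.23, and -0.14 without HFD replicate 2. No test is given, since genes are not replicates. The mean deviation of the core alone was 0.11 ± 0.15 with HFD and -0.11 ± 0.05 with BT, and that of the cap -0.00 ± 0.09 and 0.00 ± 0.07. How the difference divides between core and cap depends on the scaling, as their medians above show. In summed FPKM the core stood at 1615, 1774 and 1424 with HFD and at 1317, 1353 and 1403 with BT, and the cap at 1024, 937 and 910 against 916, 914 and 990, so the cap sums overlapped. The ratio of the sums was 1.68 ± 0.19 with HFD and 1.45 ± 0.03 with BT.

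**Figure D3:**
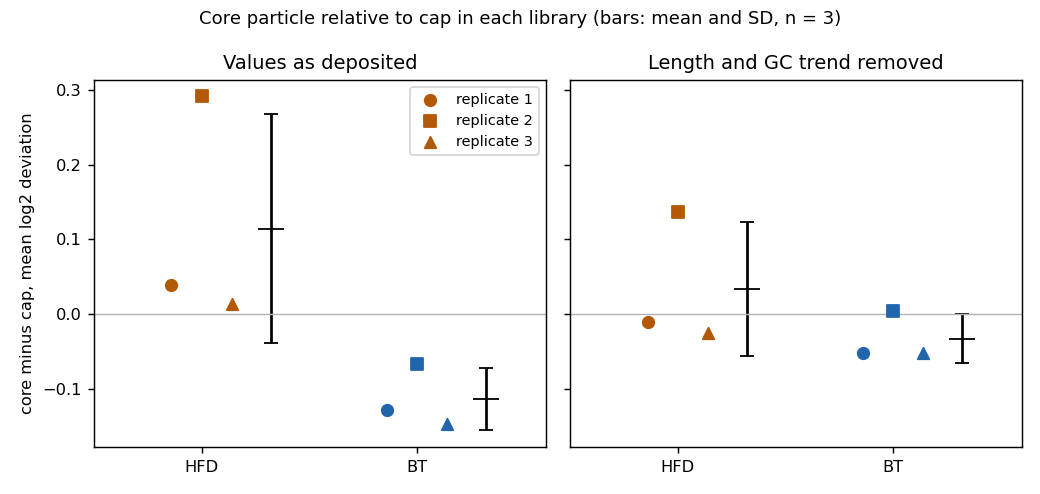
Core minus cap in each library (mean log2 deviation of 14 core genes minus that of 20 cap genes), as deposited on the left and after removal of the length and GC trend on the right, with group mean and SD beside the points. As deposited, the BT libraries lie between -0.15 and -0.07, below all HFD libraries, and on the right the groups overlap.

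Core and cap genes also differ in transcript length, and the change of all genes moved with it. Annotated transcripts had a median length of 1162 bases in the core and 1710 in the cap, against 2843 over all genes tested. Among the shortest eighth of all genes (151 to 1283 bases, 1301 genes) the median change was -0.35 and 32.2% were called lower, while the longest eighth had a median of 0.25 and 0.846% called lower. This shortest eighth held 11 core genes and no cap gene, and its 11 core genes had a median change of -0.17, with 2 called lower (Psmb2 and Psmb5). That median was less negative than the one of all genes of like length. In the next eighth (1284 to 1813 bases) 11 cap genes had a median of -0.09, the same as all 1304 genes there, and 1 of them, Psmd4, was called lower. Over the 34 core and cap genes, which share the same 6 libraries, Spearman's rho between transcript length and change was 0.50, and -0.14 with the trend removed. The libraries differed in this trend: per doubling of length the deviation changed by -0.06, -0.18 and -0.02 in the HFD libraries and by 0.09, 0.08 and 0.10 in the BT libraries. HFD replicate 2, with the steepest slope, was also the library with the highest core index.

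With the trend on length and GC content removed from each library, the core index was -0.01, 0.14 and -0.03 with HFD and -0.05, 0.00 and -0.05 with BT, which overlap, and the difference shrank from -0.23 to -0.07. The median changes were then 0.01 for the core and 0.07 for the cap, beside 0.04 for all genes. In that fit 1 member was called lower (Psma2) and 2 higher (Psma4 and Psmc3), against a background of 3.72% lower and 4.18% higher, or 7.9% in either direction. Whether the trend belongs to the diet or to the libraries cannot be told apart here.

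**Figure D4:**
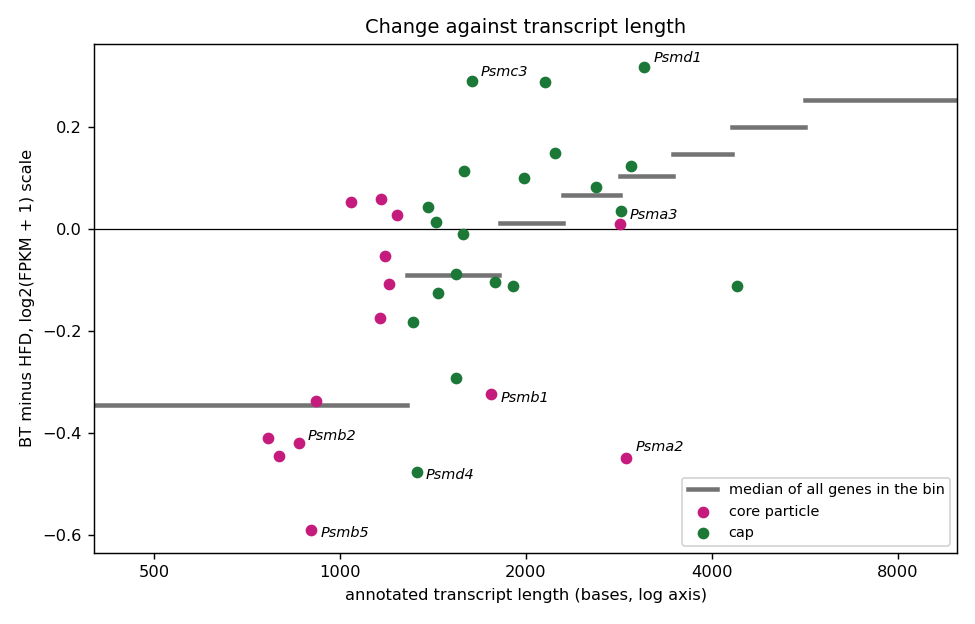
Change (BT minus HFD) of core genes (magenta) and cap genes (green) against annotated transcript length on a log axis, with grey lines for the median of all genes in each of 8 length bins, the first and last bin drawn only as far as the axis goes. Most core genes lie in the shortest bin, where the median of all genes is -0.35, and Psma2 is the core gene farthest below the median of its bin.

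The other genes of the pathway were taken from lists by role. Both remaining cap subunits were measured: Sem1, a small lid protein that escapes the symbol rule, fell from 43.5, 63.1 and 48.0 FPKM to 24.3, 32.3 and 26.6. The groups were far apart, with a change of -0.86 ± 0.16 (adjusted p = 0.0157), larger than that of any member, and -0.77 (adjusted p = 0.0384) with the length and GC trend removed. The call was lost without BT replicate 1 (adjusted p = 0.0706). As for Psma2, the value with the trend removed depends on the transcript chosen. The one used for Sem1 had at least 1472 bases, above the shortest eighth of all genes (up to 1283 bases). Other transcripts of Sem1 were not tested. Adrm1, the other ubiquitin receptor, differed by -0.10 ± 0.11 (adjusted p = 0.551).

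Of 5 genes that assemble the core, 2 fell and none rose, beside 7.33% of all genes tested called lower. Their transcripts were short, with a median of 1044 bases, and 32.2% of the shortest eighth of all genes were called lower. Psmg4 fell from 15.9, 22.3 and 15.7 FPKM to 8.16, 8.08 and 10.8 (-0.91 ± 0.17, adjusted p = 0.0151), a ratio of means of 0.502, and its partner Psmg3 from 20.1, 22.2 and 17.8 to 13.9, 15.7 and 13.5 (-0.45 ± 0.12, adjusted p = 0.0406). Neither group of values overlapped, and both calls were lost with the length and GC trend removed (adjusted p 0.0724 and 0.702). Psmg4 also lost its call without BT replicate 1 or 2 (adjusted p up to 0.0685), and Psmg3 without each library other than HFD replicate 3 (adjusted p up to 0.143). Psmg1, Psmg2 and the maturation factor Pomp differed by -0.10, -0.30 and -0.17 and did not pass.

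Among 6 activators, inhibitors and adaptors tested none passed, and Psme2b lay below the filter. The PA28 genes Psme1 and Psme2, whose products form an alternative cap, differed by -0.27 and 0.09, Psme3 by -0.11, Psme4 by 0.20 and the inhibitor gene Psmf1 by 0.02. Ecpas, a scaffold of the proteasome, was separated at 17.3, 17.7 and 23.0 FPKM against 25.3, 23.3 and 28.1 (0.40 ± 0.13, adjusted p = 0.0840). The cap-bound deubiquitinase genes Usp14 and Uchl5 differed by -0.03 and 0.09, and Thoc1 overlaps 26.0% of the exon bases of Usp14. No gene passed among the 5 that control transcription of the subunits: Nfe2l1 stood at 45.7, 46.3 and 39.7 FPKM against 34.6, 40.8 and 39.998 (-0.19 ± 0.11, adjusted p = 0.278), and Nfe2l2 at 50.1, 49.8 and 60.4 against 46.5, 46.4 and 49.1 (-0.17 ± 0.11, adjusted p = 0.315). Ddi2, Ngly1 and Syvn1, which act on the NRF1 protein, differed by 0.06, 0.11 and -0.28. The median over the 5 was -0.17. With the length and GC trend removed all 5 changes were negative, with a median of -0.25, and none passed.

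Among the genes for ubiquitin and its activation, Rps27a, which encodes ubiquitin fused to a ribosomal protein, fell from 200, 205 and 175 FPKM to 139, 141 and 143 (-0.45 ± 0.10, adjusted p = 0.0273). The groups did not overlap, but the change was -0.08 with the length and GC trend removed, and the call was lost without HFD replicate 2 or any BT library (adjusted p up to 0.118). The polyubiquitin gene Ubb differed by 0.11 and the activating enzyme gene Uba1 by 0.09, and neither passed. Vcp, which encodes the unfoldase p97, differed by 0.20 ± 0.13 (adjusted p = 0.302), and its cofactor gene Ufd1 by 0.30 (adjusted p = 0.116).

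The immune subunits, which replace the catalytic ones in leukocytes and in cells exposed to interferon, were left out of the member rule and are given for comparison. Psmb8, the counterpart of Psmb5, stood at 6.64, 7.29 and 6.83 FPKM with HFD and at 9.35, 7.87 and 16.2 with BT. Every BT value lay above every HFD value, the highest being BT replicate 3, and the change of 0.56 ± 0.22 missed the threshold (adjusted p = 0.124). Psmb9, the counterpart of Psmb6, overlapped at 17.8, 30.02 and 21.2 FPKM against 20.7, 19.0 and 39.4 (0.15 ± 0.28, adjusted p = 0.734). Psmb10, the counterpart of Psmb7, is listed at 0 in all libraries, which can be a failed estimate, so no absence is read from it. BT replicate 3 was also the library with the highest sum of 8 leukocyte markers, at 40.4 FPKM, against 14.5 to 28.5 in the HFD libraries and 18.1 and 20.8 in the other BT libraries. It was the highest library for 6 of the 8, and none of the 8 is listed at 0 in any library (Cd3e, Cd8a, Cd79a and Nkg7 lay below the filter). The part of leukocytes in the values of Psmb8 and Psmb9 was not tested. In bulk liver, fewer cells of a type and less RNA per cell cannot be told apart.

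**Figure D5:**
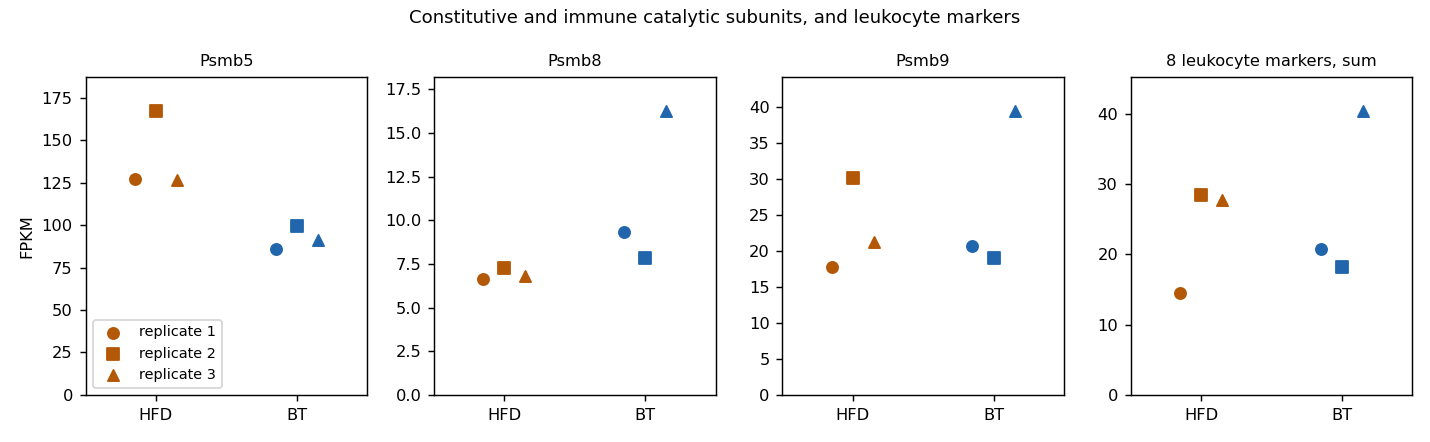
FPKM in each library of the constitutive subunit Psmb5, of the immune subunits Psmb8 and Psmb9, and of 8 leukocyte markers summed, with HFD in orange, BT in blue and 1 symbol shape per replicate number. Psmb8, Psmb9 and the marker sum are highest in BT replicate 3, while Psmb5 is lower in all BT libraries.

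The libraries carried liver markers throughout. 5 hepatocyte genes (Ttr, Apoa1, Cps1, Tat and Serpina1a) summed to 12101 to 16396 FPKM with HFD and to 9271 to 9965 with BT, and none of them is listed at 0. Alb, the albumin gene, stood between 22791 and 27895 FPKM in 5 libraries but has a listed value of 0 in HFD replicate 3, so a listed 0 need not be an absence. Within this sum Ttr, the transthyretin gene, fell (-0.76 ± 0.14, adjusted p = 0.0157), a call lost without any 1 BT library (adjusted p up to 0.0823). The hepatocyte genes did not share 1 direction. Of the 6, Alb with its listed 0 included, 3 changes were negative and 3 positive, with a median of -0.07. All BT values lay below all HFD values for 2 of the 6 and above them for 1. 4 Kupffer cell and macrophage genes summed to 41.8 to 60.7 and 40.1 to 53.6 FPKM, which overlap. FPKM sums per library ran from 783151 to 930139, the highest being HFD replicate 2. The lowest values put the depth at 13.8 to 15.8 M (mega) fragments per library. This is a rough estimate, because the window of values it was taken from was fixed beforehand and bounds it.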

How the data were processed

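The authors deposited gene expression as FPKM, 1 column per library, for 23474 Ensembl mouse genes. CASAVA 1.8.2 and STAR 2.4.0 are listed per the submitters' processing notes, as is Cufflinks 2.1.1, without their roles, and TruSeq mRNA libraries are given per the labels' protocols. For genome build, annotation and strandedness, the choice is not given in the sources used. Symbols, positions, transcript lengths and exon overlaps came from GENCODE M21 (GRCm38), which named 22671 genes and may not be the authors' build. The transcript of a gene was its APPRIS principal one with the longest coding sequence, and among equal coding sequences the longest transcript. Genes averaging 1 FPKM or more (10476) entered the test on log2(FPKM + 1) values, made with limma 3.58.1 in R 4.3.3 (lmFit, eBayes with a variance trend, 4 residual degrees of freedom), two-sided, Benjamini-Hochberg adjusted over all genes, at a threshold of 0.05. With 3 libraries against 3, the smallest p of an exact permutation test is 0.1, and such tests were not run. The fit was tested on simulated data with independent libraries and changes larger than that of any member. That test therefore does not cover changes of the members' size or a length trend shared by the libraries of a diet. The length and GC trend was removed per library with natural splines of 5 degrees of freedom, for the genes with an annotated transcript. Depth is the reciprocal of the median of FPKM times length in kilobases between 0.03 and 0.1 in genes with 1 transcript over 1000 bases. Alternatives were a pseudocount of 0.1, no filter, a filter at 5 FPKM, 3 other scalings, the length and GC trend, no variance trend, the replicate number as a block, and each library left out in turn. No 2 libraries were identical. Members, lists and tests were chosen with earlier results of these data known. All members could be named, with values in every library for those called and for the 5 largest and 5 smallest changes. Of the lists any gene could be named, but some of their genes, and counts over the lists that hold them, are not reported here. Plots used matplotlib 3.10.9 (Python 3.11.15). Intervals come from limma's spread between libraries.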

Additional observations from a re-analysis of the deposited data

How the results depend on the processing

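With no filter on low values 0 members were called lower (core 0, cap 0) and 88 genes in all, against 4, 3, 1 and 1398. Rescaled to the same sum, 2 members were lower (core 1) and 1 higher (cap 1), and the members' median of -0.09 turned to 0.0010. Quantile normalization gave 1 member higher (cap 1), and median-of-ratios scaling 2 cap genes lower. Removing the length and GC trend gave 1 lower (core 1, cap 0) and 2 higher (core 1, cap 1) among 822 genes called, medians of 0.047 for the members and 0.011 for the core, and a core minus cap difference of -0.067 against -0.23. Without the variance trend 2 members were lower (core 1). Leaving out 1 library gave 0 to 5 members lower (core 0 to 4, cap 0 to 1), 0 to 1 higher (cap 0 to 1) and 173 to 1536 genes in all. No member was called lower without BT replicate 1, 2 or 3, calls of all genes were fewest without BT replicate 1, and both counts were highest without HFD replicate 3. Apart from the construction of these settings, the cause was not tested. The split of calls, 630 higher and 768 lower, became 621 and 558 with the same sum and 448 and 884 with median-of-ratios scaling. A replicate block gave 5 members lower, adding Psmb6 (adjusted p = 0.0361), and 1808 genes in all. Same-numbered libraries had correlations of deviations of 0.163, 0.0972 and 0.147, each library correlating best with its own number. The numbers were not taken as pairs because the labels state no pairing, and whether they are pairs cannot be told. Over single members, 487 comparisons kept their call or lack of it, 28 lost and 9 gained it, and none turned round. Leaving the 3 chaperones out of the cap was chosen after seeing the data and gave a cap median of 0.04. With 3 libraries per diet, their number limits the precision.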
